A study of Sus scrofa with 18 samples.

Results

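The genes described are those for proteins of the cytosolic ribosome, measured in the liver of piglets fed by the sow or with infant formula. They were chosen by gene symbol: RPL or RPS with a number, plus RPLP0, RPLP1, RPLP2 and RPSA. Kinases of ribosomal protein S6, paralogs with an L after the number, RPS4X and RPS4Y, and RPS19BP1, which encodes a binding protein, were left out. The rule found 57 genes of 6765 named on the array, on 89 probe sets, and each gene was read from 1 probe set, the one whose log2 ratio had the highest mean over the arrays. Of the 57 genes, 31 encode proteins of the large (60S) subunit outside the stalk, 3 encode the stalk proteins, and 23 encode proteins of the small (40S) subunit. All 57 were tested, with no filter on low values, while 8 further probe sets that pair a ribosomal protein gene with another gene were left unnamed.

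Total RNA came from liver frozen at postnatal day 21 and was labelled from 8 ug per sample for an Affymetrix porcine array. Male and female piglets (Sus scrofa) had sow milk, a formula made from cow's milk or a soy formula, the formulas from day 2 to day 21, with no strain or genetic change named in the labels. Each of the 6 groups of sex and diet holds 3 RNA pools (18 arrays). How many piglets a pool holds, and whether pools share litters, is not given by the labels, and the p-values therefore reflect only how these pools spread. The deposited value is a ratio on a linear scale, near 1 at the median of a probe set with a clear signal, so it compares pools for one gene and never one gene with another. Albumin, the defining hepatocyte product, was read at ratios from 0.811 to 1.07 over the 18 pools.

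Each ribosome is built from ribosomal RNAs and a large set of proteins, nearly all present as a single copy, and the mRNAs for these proteins are usually kept at matched levels. In vertebrates these mRNAs begin with a run of pyrimidines, the 5′ TOP motif, through which the mTORC1 pathway adjusts their translation to nutrients and growth factors, often with little change in mRNA level. The liver is a major site of protein synthesis, and its ribosome content is known to follow feeding. An array of mRNA measures neither ribosome number nor translation.

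Ribosomal protein mRNAs varied less between pools of one group than most probe sets did. Their median residual SD on the log2 scale was 0.168, against 0.256 over all 23935 probe sets tested. Among males the medians were 0.213 and 0.324, and among females 0.118 and 0.134. RPL6 (60S) had the lowest residual SD of the genes, 0.0766, and RPL38 (60S) the highest, 0.734. RPL38 was read at 0.456, 1.23 and 0.291 in the male sow milk pools alone, so its diet differences rest on widely scattered values. Ratios of RPL26, RPL30 and RPS15A were low in every pool, with mean log2 ratios below -2, and their values carry little signal.

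**Figure D1:**
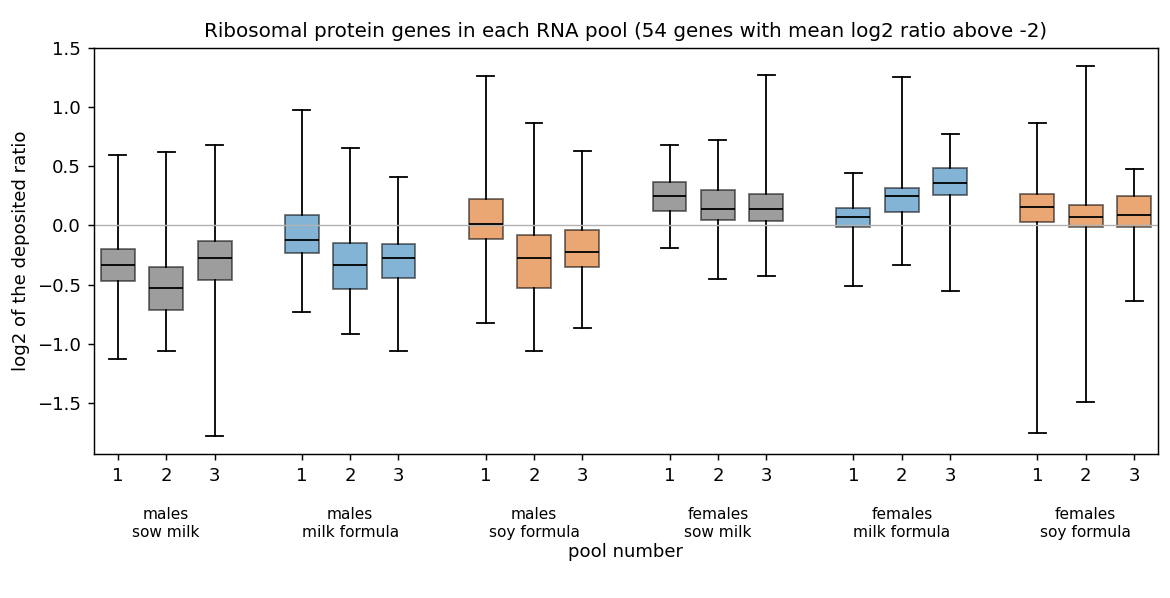
Log2 of the deposited ratio (vertical axis) of 54 ribosomal protein genes in each of the 18 RNA pools (horizontal axis, by sex and diet). Boxes span the quartiles, lines the medians and whiskers the full range over genes; most male boxes lie below the female boxes, within a sex the medians of the 3 diets overlap, and the lower whiskers are longest in male sow milk pool 3 (RPL38) and in female soy formula pools 1 and 2.

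The median log2 ratio over the 57 genes described each pool as a whole. In males it was -0.34, -0.54 and -0.29 on sow milk, -0.15, -0.38 and -0.29 on milk formula, and 0.02, -0.31 and -0.24 on soy formula. In females it was 0.23, 0.13 and 0.12 on sow milk, 0.07, 0.23 and 0.35 on milk formula, and 0.14, 0.05 and 0.08 on soy formula. These medians overlapped between the diets within each sex. Male sow milk pool 2 had the lowest median, and with it the lowest ratio of an 18S rRNA control among the male pools, 1.18 against 1.92 to 3.17 in the others, while the other 18S control was highest there, 1.01 against 0.304 to 0.992. The part of RNA makeup in this was not tested.

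With milk formula, 0 of the 57 genes passed the threshold in the comparison with sow milk over both sexes (limma, Benjamini-Hochberg adjusted p under 0.05), where 0.756% of all probe sets did. At an unadjusted p under 0.05 there were 5 genes, all higher, where 5.09% of all probe sets were higher at that p. Of the 5223 probe sets whose median ratio was within 0.002 of 1, 551 were higher at that p. Those of 53 of the 57 genes are among these 5223. The median difference of the 57 genes was 0.08 on the log2 scale, with a range from -0.15 to 0.35. It was 0 over all probe sets and 0.03 over the 5223 whose median ratio was within 0.002 of 1. Above 0 were 45 of 57 genes (78.9%), against 51.2% and 55.3%. Most of the 57 genes varied together from pool to pool, so such counts, here and below, are not made of separate observations. The 95% interval of the difference, unadjusted, lay within 0.5 log2 units of 0 for 49 genes and within 1 unit for all 57. The medians of the subunits were close, 0.07 for the 60S genes, 0.06 for the stalk and 0.1 for the 40S genes.

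With soy formula, 0 of 57 genes passed the same test against sow milk over both sexes, where 3.28% of all probe sets did. At an unadjusted p under 0.05 there were 7 genes, 6 higher and 1 lower, against 14.3% of all probe sets in either direction. The median difference was 0.06, with a range from -0.43 to 0.47, against 0 over all probe sets and -0.02 over those 5223. Above 0 were 37 of 57 genes (64.9%), against 50% and 47.2%. The interval lay within 0.5 log2 units of 0 for 47 genes and within 1 unit for 56, the exception being RPL38. Both formula comparisons use the same sow milk pools and are not independent.

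**Figure D2:**
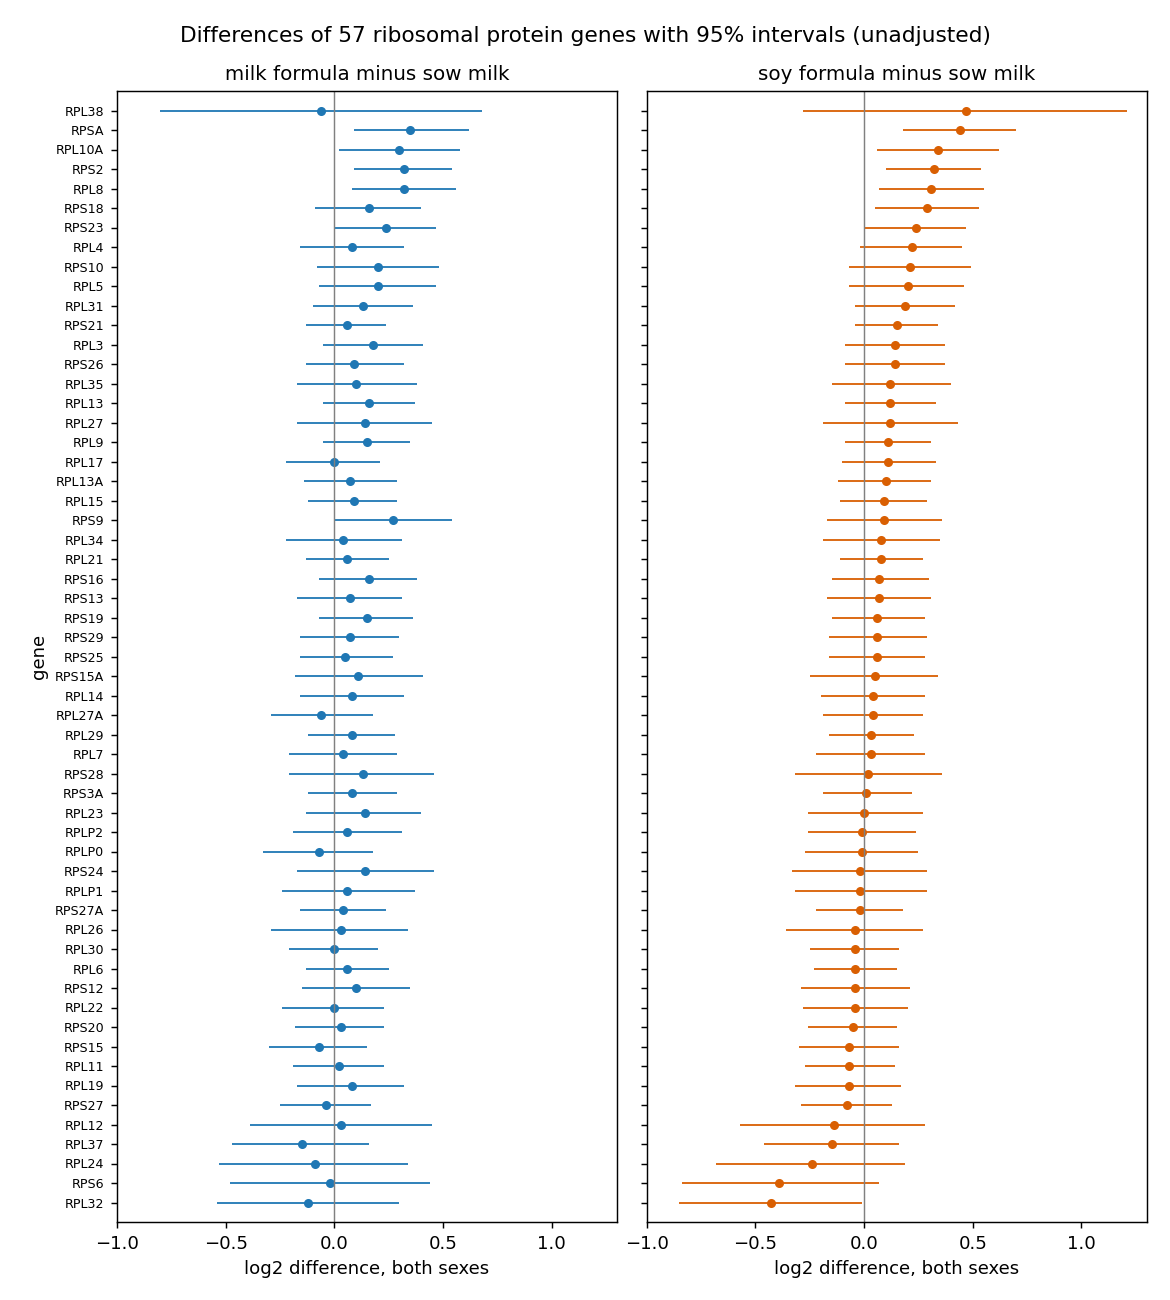
Log2 difference (horizontal axes) of each of the 57 ribosomal protein genes (vertical axis, ordered by the soy formula value) between milk formula or soy formula and sow milk, as the mean over both sexes; points are estimates and lines unadjusted 95% intervals. Most points lie within 0.3 of 0, RPL38 has the widest interval, and RPL32 and RPS6 lie lowest on soy formula.

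RPSA, a 40S protein also known as the 67 kDa laminin receptor, had the smallest adjusted p on soy formula over both sexes. In males it was read at 0.695, 0.606 and 0.723 on sow milk, 1.07, 0.725 and 0.812 on milk formula, and 1.12, 0.874 and 1.01 on soy formula. In females the ratios were 0.93, 0.906 and 1 on sow milk, 1.05, 1.14 and 1.5 on milk formula, and 1.28, 1.27 and 0.997 on soy formula. All male formula pools lay above all male sow milk pools, and in females this held for milk formula, while soy pool 3 fell among the sow milk values. The log2 difference over both sexes was 0.44 (SE 0.13, 1.36-fold) on soy formula, with an adjusted p of 0.065 in limma, and 0.35 (SE 0.13, adjusted p = 0.295) on milk formula. The soy value passed the threshold without male milk formula pool 1 (adjusted p = 0.0408) or without male soy formula pool 2 (0.0442), and its adjusted p reached 0.165 when other single pools were left out.

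RPS2, a core 40S protein near the mRNA entry channel, was also among the highest. Its male ratios were 0.856, 0.699 and 0.824 on sow milk, 1.12, 0.881 and 0.926 on milk formula, and 1.24, 1.18 and 1.04 on soy formula. Its female ratios were 1.01, 0.874 and 0.895, then 1.01, 1.2 and 1.31, then 0.981, 1.01 and 0.994 on the same diets. Male formula pools and female milk formula pools all lay above the sow milk pools of their sex, while female soy pools overlapped with them. The difference from sow milk over both sexes was 0.32 (SE 0.11) on either formula, with limma adjusted p of 0.247 for milk and 0.117 for soy.

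RPL8, a 60S protein at the peptidyl transferase centre, was read in males at 0.67, 0.48 and 0.706 on sow milk, 0.885, 0.753 and 0.77 on milk formula, and 0.96, 0.894 and 0.788 on soy formula. In females it was read at 1.2, 1.04 and 1.06, at 1.15, 1.35 and 1.42, and at 1.2, 1.11 and 1.21. The males separated by diet in the same way, and the females overlapped. Its differences were 0.32 (SE 0.11, limma adjusted p = 0.293) on milk formula and 0.31 (SE 0.11, adjusted p = 0.176) on soy formula.

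RPL10A, a 60S protein of the L1 stalk, had male ratios of 0.861, 0.724 and 0.953 on sow milk, 1.39, 0.861 and 0.91 on milk formula, and 1.42, 1.03 and 1.07 on soy formula. Its female ratios were 0.927, 0.895 and 0.951, then 0.974, 1.17 and 1.3, then 1.06, 1.06 and 1.09. All soy formula pools lay above all sow milk pools within both sexes, which held for 1 of the 57 genes and for 1.61% of all probe sets. The soy difference over both sexes was 0.34 (SE 0.13, limma adjusted p = 0.215). The lowest values on milk formula belonged to RPL37 at -0.15, RPL32 at -0.12 and RPL24 at -0.09, with limma adjusted p of 0.842, 0.918 and 0.948.

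In males alone, 0 of 57 genes passed the limma test for milk formula, where 0.0961% of all probe sets did, and 0 had an unadjusted p under 0.05, against 6.09% of all probe sets. The median was 0.14, against 0.02 over all probe sets and 0.08 over the 5223 with a median ratio within 0.002 of 1. Above 0 were 51 of 57 genes (89.5%), against 52.2% and 59.2%. For soy formula 0 of 57 passed, where 0.284% of all probe sets did. At an unadjusted p under 0.05, 4 genes were higher, RPS18, RPSA, RPS2 and RPL8, against 3.61% of all probe sets. Of those 5223, 348 were higher at that p. The male soy median was 0.21, against 0 over all probe sets and -0.03 over those 5223. Above 0 were 52 of 57 genes (91.2%), against 50.3% and 46.9%. Male intervals were wide: only 4 of 57 stayed within 0.5 log2 units of 0 for soy formula, and 50 within 1 unit. The male medians depended on single pools: for milk formula the median was 0.06 without male sow milk pool 2 or without male milk formula pool 1, and for soy formula it was 0.14 without male sow milk pool 2 and 0.1 without male soy formula pool 1. These shifts were smaller than the SD of the male pool medians, 0.142. That SD is about as large as the milk formula median itself, 0.14, so it cannot show that this median held.

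The males were also compared by whether the groups overlapped. Most of the 57 genes varied together from pool to pool, so the genes in these counts are not separate observations. All 3 soy formula pools lay above all 3 sow milk pools for 12 of 57 genes (21.1%), against 5.81% of all probe sets. These were RPL5, RPL8, RPL10A, RPL13, RPL15, RPL21 and RPL31 of the 60S subunit, and RPS2, RPS10, RPS18, RPS21 and RPSA of the 40S subunit. Wholly lower on soy formula in males were 0 of 57 genes, against 6.16% of all probe sets. For milk formula 4 genes lay wholly above sow milk, RPL8, RPL23, RPS2 and RPSA, against 6.09% of all probe sets, and 0 lay wholly below, against 4.92%. With quantile normalization the milk formula count was 2 (3.51%), against 5.64% of all probe sets, and the soy formula count was 18 (31.6%), against 6.13%.

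RPS18, a protein of the 40S head, had the highest male soy value after RPL38. Its male ratios were 1.13, 0.934 and 1.12 on sow milk, 1.4, 0.927 and 1.33 on milk formula, and 1.65, 1.82 and 1.53 on soy formula. The female ratios were 0.982, 0.828 and 0.853, then 0.86, 1.03 and 1.02, then 0.856, 0.86 and 0.807. In males the soy pools stood above both other diets, and in females the 3 diets overlapped. The male soy difference was 0.65 (SE 0.23, limma adjusted p = 0.473), and it passed the threshold where the within-sex contrast was taken from all arrays. That setting shares 1 spread between the sexes, while the median residual SD of the 57 genes was 0.213 in males and 0.118 in females. A shared spread understates that of males and gives them too many calls.

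In females, soy formula was the comparison in which ribosomal protein genes passed the threshold. RPL32 and RPS6 were lower than on sow milk, 2 of 57 genes (limma), where 6.66% of all probe sets passed in either direction and 3.06% passed as lower. At an unadjusted p under 0.05, 9 genes were lower, against 10% of all probe sets, and 0 were higher. The median was -0.07 against -0.01 over all probe sets, with 42 of 57 genes below 0. Above 0 were 15 genes (26.3%), against 47.6% of all probe sets.

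RPL32 encodes a 60S protein. On sow milk its ratio in females was 0.953, 0.85 and 0.849, on milk formula 0.7, 0.848 and 0.816, and on soy formula 0.296, 0.356 and 0.642. The soy pools all lay below the others, pools 1 and 2 by the widest margin. The log2 difference between soy formula and sow milk was -1.12 (SE 0.23, 0.462-fold), with a limma adjusted p of 0.0177.

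RPS6, the 40S protein that S6 kinases phosphorylate downstream of mTORC1, was read in females at 1.03, 0.84 and 0.959 on sow milk, 0.798, 0.89 and 0.825 on milk formula, and 0.305, 0.47 and 0.751 on soy formula. Its soy pools again lay below the others, with pool 3 close to the milk formula values. The difference from sow milk was -0.98 (SE 0.25, 0.506-fold), with a limma adjusted p of 0.0431.

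Each of these genes has another probe set on the array that did not move in this way. The other RPL32 probe set was read at 1.12, 0.986 and 1.03 in the female sow milk pools and at 1.19, 1.13 and 1.01 in the soy formula pools, a difference of 0.08 (SE 0.1, limma adjusted p = 0.734). The other RPS6 probe set was read at 1.2, 1.07 and 1.14 on sow milk and at 1.12, 1.09 and 1.11 on soy formula, a difference of -0.03 (SE 0.1, adjusted p = 0.912). Where the probe sets of each gene were averaged, RPL32 was at -0.52 (adjusted p = 0.0327) and RPS6 at -0.51 (adjusted p = 0.0713). Where the within-sex contrasts were taken from all arrays, the adjusted p was 0.0596 for RPL32 and 0.17 for RPS6.

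One of 2 probe sets for 18S rRNA among the controls of the array was also lowest in female soy formula pools 1 and 2. It was 0.818, 0.705 and 0.699 on sow milk, 0.516, 0.77 and 0.709 on milk formula, and 0.165, 0.202 and 0.591 on soy formula. A 28S rRNA control was 0.0773 and 0.084 in soy pools 1 and 2, against 0.136 to 0.383 in the other female pools. The second 18S rRNA control did not share this order, at 1.71, 1.11 and 2.79 on soy formula and 1.08, 1.9 and 1.57 on sow milk. The difference between the 5′ and 3′ probe sets of the elongation factor 1 alpha control was also lowest in soy pools 1 and 2, -0.41 and -0.24 on the log2 scale. For the actin control it was -0.2 and -0.35 there, and -0.26 in female milk formula pool 1. For the GAPDH control it was -0.24 and -0.32 there, and -0.24 in female sow milk pool 1. Soy pools 1 and 2 thus held both the lowest RPL32 and RPS6 ratios and the lowest values of those rRNA controls, and the part of rRNA carry-over and RNA quality in the result was not tested.

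Without soy formula pools 1 and 2, RPL32 was at -0.46 (limma adjusted p = 0.183) and RPS6 at -0.32 (adjusted p = 0.375), and 0 genes of the 57 passed. These pools were chosen for their low values and 1 female soy array then remains, its spread taken from the other groups, so the lost call was built into this choice. Leaving out single female pools also ended calls: 0 genes passed without sow milk pool 1, sow milk pool 2 or soy formula pool 2. RPL32 alone passed without sow milk pool 3 or any one milk formula pool, RPL32 and RPLP0 passed without soy formula pool 1, and RPL12, RPL24, RPL32, RPS6 and RPS28 passed without soy formula pool 3. RPL32 ranged from -1.44 to -0.88 over these single omissions, and RPS6 from -1.31 to -0.66.

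**Figure D3:**
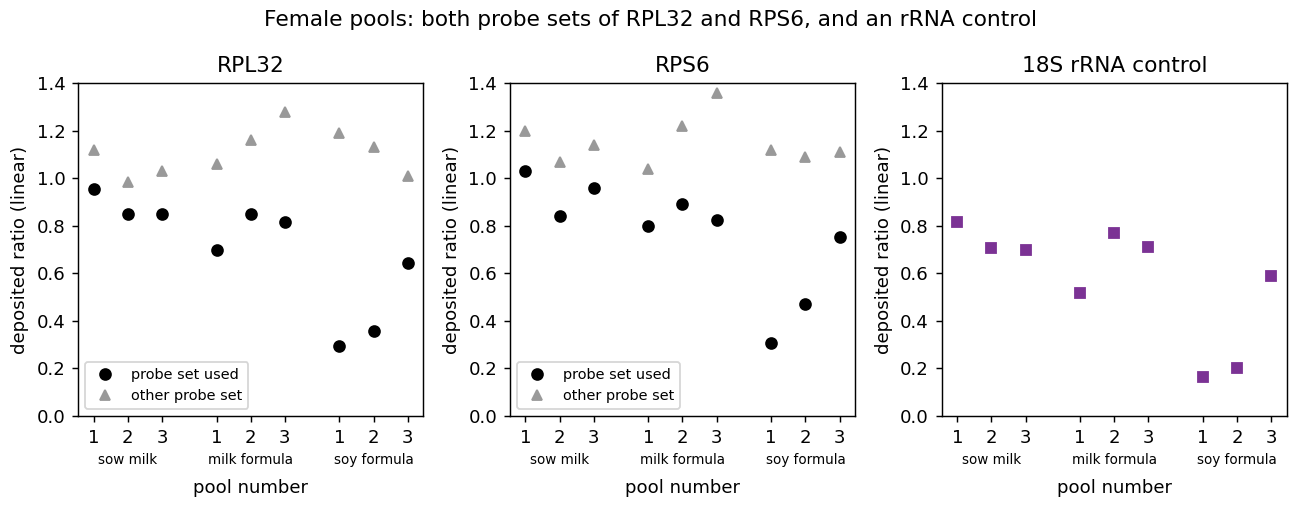
Deposited ratio (vertical axes, linear) in the 9 female pools (horizontal axes, by diet) for both probe sets of RPL32 and of RPS6, and for the first 18S rRNA control (squares). The probe sets used for the genes (circles) are lowest in soy formula pools 1 and 2, as is the 18S control, while the other probe sets (triangles) stay near or above 1.

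RPL12 and RPL24 were next lowest in females on soy formula and did not pass the limma test. RPL12, a 60S protein at the stalk base, was read at 0.91, 0.996 and 0.977 on sow milk and at 0.403, 0.562 and 1.04 on soy formula, a difference of -0.63 (SE 0.28, adjusted p = 0.231). RPL24, a 60S protein that bridges the subunits, was read at 1.27, 1.17 and 1.25 and at 0.554, 0.738 and 1.18, a difference of -0.65 (SE 0.22, adjusted p = 0.115). For both genes soy pools 1 and 2 were low and pool 3 stayed close to the sow milk values. Another bright probe set of each gave 0.04 for RPL12 and -0.03 for RPL24.

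Among the highest female values on soy formula were RPSA at 0.31, RPL10A at 0.21, and RPS23 and RPL38 at 0.17, none of which passed. RPL10A and RPS23 were the genes whose 3 female soy pools all lay above the sow milk pools, 2 of 57 (3.51%) against 12.3% of all probe sets, and with quantile normalization 5 genes did so (8.77%), against 12.9%. Wholly lower were 11 genes (19.3%) against 12.8% of all probe sets: RPL11, RPL29, RPL32, RPLP0, RPLP2, RPS6, RPS12, RPS15, RPS19, RPS20 and RPS29. RPS19, a 40S protein mutated in Diamond-Blackfan anaemia, was among them at 1.17, 1.05 and 1.11 on sow milk and 1.04, 0.968 and 0.98 on soy formula, a difference of -0.16 (SE 0.1).

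Milk formula in females gave 0 of 57 calls, where 0.74% of all probe sets passed, and 5 genes at an unadjusted p under 0.05 (limma), against 10.9% of all probe sets. RPSA, RPS2, RPL10A and RPL8 were higher, at 0.36, 0.33, 0.31 and 0.25, and RPLP0 was lower, at -0.46. The median was 0.03 against -0.01 over all probe sets. Wholly above sow milk were RPL3, RPL10A, RPS2, RPS23 and RPSA, 5 of 57 genes (8.77%) against 6.44% of all probe sets. With quantile normalization this count was 2 (3.51%), against 7.39% of all probe sets. Wholly below sow milk were RPL24, RPL32 and RPLP0, 3 genes (5.26%) against 7.9%. RPS2 and RPSA were wholly higher on milk formula in both sexes, 2 of 57 genes, as were 0.982% of all probe sets, and 0 of 57 genes were wholly lower in both, against 0.731%.

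The stalk proteins RPLP0, RPLP1 and RPLP2 recruit translation factors to the ribosome. RPLP0 was read in females at 1.21, 1.24 and 1.19 on sow milk, at 0.949, 0.794 and 0.901 on milk formula, and at 1.14, 0.832 and 0.9 on soy formula. Both formula groups lay below the sow milk pools, and the limma adjusted p was 0.147 for milk formula and 0.12 for soy formula. In males it was read at 0.755, 0.746 and 1.11 on sow milk, 1.1, 0.951 and 1.15 on milk formula, and 1.02, 0.976 and 1.24 on soy formula, with overlapping groups. The other RPLP0 probe set gave 0.12 and 0.04 in females for the formulas against sow milk. RPLP1 and RPLP2 were at -0.07 and -0.29 in females on soy formula.

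RPL5 and RPL11, the 60S proteins that carry 5S rRNA and can bind MDM2, were at 0.2 and -0.07 on soy formula and at 0.2 and 0.02 on milk formula over both sexes, with SEs of 0.13 and 0.1. RPS27A, made as a fusion with ubiquitin, was at -0.02 on soy formula and 0.04 on milk formula (SE 0.1). RPL6, the least variable gene, was at -0.04 and 0.06 (SE 0.09). None of these 4 genes passed the limma test on either formula.

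The diet effects were then compared between the sexes. For soy formula against sow milk, 0 of 57 genes passed the limma interaction test, where 0.0125% of all probe sets did, and 11 genes had an unadjusted p under 0.05, all with a lower value in females, against 3.53% of all probe sets in that direction. The median of the female minus male difference was -0.29 against -0.01 over all probe sets, with 53 of 57 genes below 0. Above 0 were 4 genes (7.02%), against 49% of all probe sets. As the genes varied together from pool to pool, they are not separate observations in these counts. The lowest were RPL32 at -1.38 (SE 0.4, limma adjusted p = 0.34), RPS6 at -1.19 and RPL12 at -0.98, read from the probe sets that were low in female soy formula pools 1 and 2. RPS28 was at -0.95 (SE 0.32, limma adjusted p = 0.446), and its probe set was also low in those pools, at 0.523 and 0.445. In female soy formula pool 3 it was at 0.816, and the other RPS28 probe sets gave 0.08 and 0 in females on soy formula. RPS18 was at -0.73 (SE 0.23, limma adjusted p = 0.394), and its bright probe sets had opposite signs in this comparison. For milk formula the interaction test called 0 of 57 genes, where 0.00418% of all probe sets passed. RPLP0 was lower at an unadjusted p under 0.05, as were 3.4% of all probe sets. The median was -0.1, against -0.02 over all probe sets and -0.09 over the 5223 with a median ratio within 0.002 of 1.

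Soy formula was also set against milk formula, with the same formula pools as above. Over both sexes 0 of 57 genes passed in limma, where 0.66% of all probe sets did, and 0 had an unadjusted p under 0.05, against 10.7% of all probe sets. The median was -0.04 against 0, from RPS6 at -0.37 and RPL32 at -0.31 to RPL38 at 0.52, which rests on scattered values. In males 0 of 57 passed, as did 0% of all probe sets, with 0 genes at an unadjusted p under 0.05, against 6.18% of all probe sets, and a median of 0.07. In females 0 of 57 passed, where 2.25% of all probe sets did, and 8 genes were lower at an unadjusted p under 0.05, against 6.84% of all probe sets. The female median was -0.12 against 0, with 47 of 57 genes below 0. Above 0 were 10 genes (17.5%), against 49.1% of all probe sets. RPL32 (-0.95, limma adjusted p = 0.062) and RPS6 (-0.81, adjusted p = 0.129) were lowest. Without female soy formula pool 3, RPL32 and RPS6 passed in this comparison. The interaction of sex with the formula called 0 of 57 genes, as it did 0% of all probe sets, with 3 genes lower in females at an unadjusted p under 0.05, against 2.88% of all probe sets.

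Wholly lower on soy formula than on milk formula were 9 genes in females (15.8%), against 8.92% of all probe sets: RPL13, RPL19, RPL29, RPL32, RPLP2, RPS2, RPS6, RPS12 and RPS16. With quantile normalization 3 genes did so (5.26%), against 9.17% of all probe sets. Wholly higher in females were 0 genes, against 10.2%. In males 2 genes, RPS18 and RPS21, lay wholly higher (3.51%), against 4.58% of all probe sets, and 0 lay wholly lower, against 6.09%. With quantile normalization 5 lay wholly higher (8.77%), against 5.41% of all probe sets.

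Male arrays differed from female arrays at most probe sets, 62.6% of all at the threshold, and sex and a possible array batch cannot be told apart. Of the 57 genes, 42 were lower and 7 higher in males (limma), against 36.8% and 25.8% of all probe sets. Their median was -0.4, against 0 over all probe sets and -0.94 over the 5223 probe sets whose median ratio was within 0.002 of 1. RPL22, a 60S protein, was among the lowest at -1.19, with ratios of 0.53 to 0.748 in all male pools and 1.25 to 1.6 in all female pools. RPL32 was at 1.15, RPS28 at 1.09 and RPS6 at 0.86, and these were the same probe sets that were low in female soy formula pools 1 and 2. The other probe sets of RPL32, RPS6 and RPS28 had the opposite sign in this comparison. The first 18S rRNA control was 1.18 to 3.17 in males and 0.165 to 0.818 in females, the second 0.304 to 1.01 and 0.629 to 3.12, and their part in these differences was not tested.

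Probe sets of one gene often disagreed. Of the 57 genes, 33 have 1 probe set and 24 have more than 1. Among the 15 genes with at least 2 bright probe sets (mean log2 ratio above -0.5), 9 had probe sets of opposite sign for soy formula against sow milk over both sexes, and 9 for milk formula. For soy formula these were RPL12, RPL13A, RPL17, RPL23, RPL24, RPL32, RPLP0, RPS6 and RPS27, most with values close to 0. Of all 89 probe sets, 4 passed as lower in females on soy formula, where 3.06% of all probe sets did. These were those of RPL32 and RPS6 described above, and 1 each of RPL13A and RPL23 that was not used for its gene. The choice of probe set went by mean ratio, which was not tested as a measure of signal.

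Ribosome biogenesis genes encode the nucleolar and export factors that make rRNA and assemble the subunits, and 37 of a list of 50 were measured. On soy formula 6 rose and 0 fell over both sexes (limma), where 1.52% of all probe sets rose. The median was 0.26 against 0 over all probe sets, and 14 had an unadjusted p under 0.05, against 14.3% of all probe sets. NPM1, a nucleolar chaperone, rose by 0.65 (SE 0.11, adjusted p = 0.00195), and GNL3, nucleostemin, by 0.97 (SE 0.18, adjusted p = 0.00454). NOP56, a core protein of box C/D snoRNPs, rose by 0.98 (SE 0.19, adjusted p = 0.00524), and RRP9, a U3 snoRNP protein, by 0.67 (SE 0.16, adjusted p = 0.0273). GNL2, a nucleolar GTPase, and TAF1D, a subunit of the RNA polymerase I factor SL1, rose by 0.63 and 0.64.

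GNL3 was read in females at 0.988, 1.01 and 0.99 on sow milk, 1.03, 1.11 and 1.38 on milk formula, and 1.94, 1.99 and 2.37 on soy formula. In males GNL3 was read at 0.652, 0.346 and 0.768, at 0.815, 0.638 and 0.467, and at 0.773, 1.14 and 1.18. The soy pools stood above the sow milk pools in both sexes, in females with a wide gap. NPM1 was read in females at 1.09, 1.05 and 1.01 on sow milk, 1.36, 1.48 and 1.8 on milk formula, and 1.47, 1.56 and 1.59 on soy formula, and in males at 0.513, 0.45 and 0.511, at 0.745, 0.591 and 0.697, and at 0.99, 0.803 and 0.697. Both formulas stood above sow milk for NPM1 in both sexes.

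In females 11 of the 37 biogenesis genes rose on soy formula and 0 fell, where 3.6% of all probe sets rose, with a median of 0.37, among them RRP9 at 0.95 and NMD3, the export adaptor of the 60S subunit, at 0.8. In males 0 passed (limma), with 5 at an unadjusted p under 0.05 and a median of 0.12. On milk formula NPM1 alone rose over both sexes, by 0.5 (SE 0.11, adjusted p = 0.0379), a call lost without male sow milk pool 2, male milk formula pool 1 or 3, female milk formula pool 2 or 3, or any one female sow milk or soy formula pool. The count on soy formula over both sexes was 3 without male sow milk pool 3 or female sow milk pool 2, 4 without male soy formula pool 1 or 3, female sow milk pool 1 or 3, or any one female soy formula pool, and 2 without female soy formula pools 1 and 2. The female count was 4 without those pools, where 1 female soy array remains, 6 to 8 without any one female sow milk or soy formula pool, and 2 where the within-sex contrasts were taken from all arrays. Taking these contrasts from all arrays uses 1 spread for both sexes, 0.256 at the median over all probe sets, against 0.134 in females alone. The lists were chosen with earlier results known, and whether biogenesis genes and ribosomal proteins differ in their response was not tested as such.

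**Figure D4:**
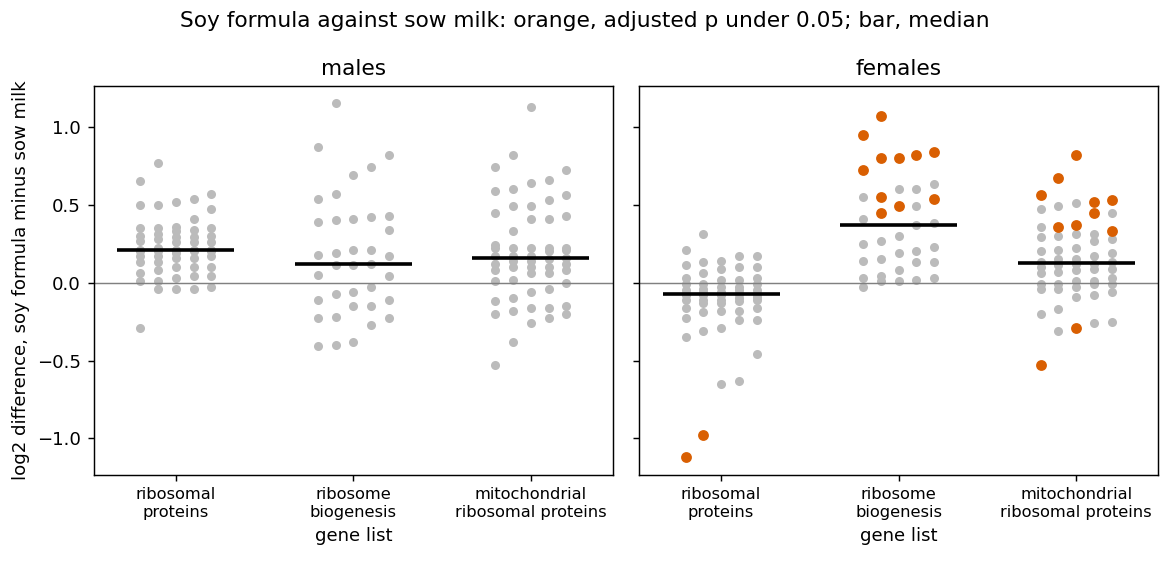
Log2 difference between soy formula and sow milk (vertical axes) of the 57 ribosomal protein genes, 37 ribosome biogenesis genes and 58 mitochondrial ribosomal protein genes (horizontal axes) in males and in females; orange points passed an adjusted p of 0.05 and bars are medians. In females 11 biogenesis genes rose, with a median of 0.37, while the ribosomal protein median was -0.07 with RPL32 and RPS6 below the rest, and in males no gene of the 3 lists passed.

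Among the 5 measured paralogs that the rule left out, RPL22L1 was the one that passed. RPL22L1, the paralog of RPL22, was read in males at 0.444, 0.416 and 0.272 on sow milk, 0.668, 0.493 and 0.331 on milk formula, and 0.801, 0.532 and 0.611 on soy formula. In females it was read at 1.38, 1.2 and 1.51, at 2.19, 1.49 and 2.25, and at 2.73, 2.68 and 2.38. All soy pools lay above all sow milk pools in each sex, and it rose on soy formula by 0.86 over both sexes (SE 0.17, limma adjusted p = 0.00745) and by 0.93 in females (SE 0.15, adjusted p = 0.0068). On milk formula the difference was 0.45 (SE 0.17, adjusted p = 0.37). RPL22 itself was at -0.04 on soy formula (SE 0.11). Without female soy formula pools 1 and 2, RPL22L1 was at 0.8 with an adjusted p of 0.126, from 1 remaining female soy array. RPL7L1, RPS27L, RPL26L1 and RPL36AL were at 0.3, 0.22, 0.17 and -0.04 on soy formula.

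Translation factors and other mRNAs with 5′ TOP starts are controlled through the same motif as the ribosomal proteins. Of 20 listed, 16 were measured, 0 passed on either formula over both sexes (limma; at an unadjusted p under 0.05 there were 2 on soy and 0 on milk formula), and the medians were 0 on soy and 0.17 on milk formula. EEF1A1, the main elongation factor that delivers aminoacyl-tRNA, was at -0.32 on soy formula (SE 0.1, adjusted p = 0.092). FAU, which encodes the 40S protein S30 fused to a ubiquitin-like domain, fell by 0.39 in females on soy formula (SE 0.09, adjusted p = 0.0325). In that comparison 3.06% of all probe sets fell, and the count for the list in females is not given here. RACK1, a scaffold on the 40S subunit, was at 0.17 over both sexes.

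Of 20 genes that signal growth to ribosomal protein mRNAs, 10 were measured, and 0 passed on either formula over both sexes (limma; 3 on soy and 1 on milk formula at an unadjusted p under 0.05). RHEB, the GTPase that activates mTORC1, rose in females on soy formula by 0.55 (SE 0.09, adjusted p = 0.00618), with ratios of 1.01, 1.15 and 1.07 on sow milk and 1.57, 1.48 and 1.66 on soy formula. In that comparison 3.6% of all probe sets rose, and the count for the list in females is not given here. TSC2, which inhibits RHEB, was at -0.4 (SE 0.19) and MYC, a driver of ribosome biogenesis, at -0.14 (SE 0.29) over both sexes on soy formula. Genes for mitochondrial ribosomal proteins, a list added after the data were seen, held 58 genes. Over both sexes 2 rose on soy formula, MRPS34 (0.75, SE 0.19) and MRPL35 (0.66, SE 0.16), where 1.52% of all probe sets rose. In females 9 rose and 2 fell, where 3.6% of all probe sets rose and 3.06% fell.

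Some markers of liver cells passed the threshold with each formula. On milk formula over both sexes (limma), CPS1 fell by 1.11 and HNF4A rose by 0.96 among 10 hepatocyte markers. The other hepatocyte markers lay between -0.21 and 0.04. RGS5 fell by 0.99 among 7 stellate and fibroblast markers, no other cell marker passed, and 0.756% of all probe sets did. The summed erythroid ratio in females was 3.1 to 13.1 on milk formula, 1.57 to 2.61 on sow milk and 2.54 to 8.12 on soy formula. None of the 5 erythroid markers passed on milk formula, with AHSP at 1.74, ALAS2 at 0.87, KLF1 at 0.35, HBE1 at 0.02 and HBB at -0.27. Over both sexes 4 of 7 measured macrophage markers fell on soy formula, CD5L, VSIG4, C1QA and C1QC, as did 4 of 9 endothelial markers, CDH5, ENG, FCN2 and TEK. The summed macrophage ratio in females was 9.92 to 12.1 on sow milk, 10.2 to 11.7 on milk formula and 5.85 to 7.55 on soy formula, and in males 5.07 to 6.48, 5.29 to 6.77 and 3.87 to 4.76. The summed endothelial ratio in females was 11.5 to 12.9, 9.83 to 12.1 and 7.05 to 8.58 on the same diets. Among the 10 hepatocyte markers HNF4A rose and SERPINA1 fell, and the female sums were 12.8 to 13.7, 11.4 to 12 and 12.8 to 14.1. Of the lymphocyte markers 1 of 10 fell (CD74), of the stellate and fibroblast markers 2 of 7 (DCN and RGS5), and of the cell cycle genes 1 of 12 (RRM2), while 0 of 5 erythroid, 0 of 5 cholangiocyte and 0 of 4 neutrophil markers passed (limma), with 2, 0 and 1 at an unadjusted p under 0.05. Fewer cells of a type and less RNA per cell cannot be told apart in such pools, and the part of cell makeup in the ribosomal protein values was not tested.

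Within groups, most ribosomal protein genes varied together from pool to pool. Over residuals from the 6 group means of 18 arrays, the median correlation of a gene with the mean of the 57 was 0.759, and 47 genes were above 0.5. That mean includes the gene itself. The share of all probe sets above 0.5 is not given here, so the count cannot be called particular to these genes. RPL38 was lowest at -0.289, and RPLP0 was at 0.127. The other genes most like that mean were FKBP3 (0.889), RUVBL1 (0.87), NPM1 (0.868), SBDS (0.866) and UBE2W (0.86). Of the rRNA controls, the 18S probe sets were at 0.505 and 0.291 and the 28S probe sets at 0.516 and 0.559 with the same mean, and their part in these correlations was not tested. All of these points share the arrays and their signal levels, so the correlations describe these pools.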

How the data were processed

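Liver RNA pools were measured on arrays, 3 for each of 6 groups. The deposited table gives a linear ratio per probe set and array; per the submitters' processing notes, GCOS and RMA were used, and no version or annotation build is given in the sources used here. The divisor of the ratio is not stated; a divisor fixed per probe set would cancel between arrays, which was not tested. Log2 of the ratio was taken, 188 controls were set aside and 23935 probe sets were tested with limma 3.58.1 in R 4.3.3, with Benjamini-Hochberg adjustment per contrast and a threshold of 0.05. Contrasts over both sexes and interactions came from all 18 arrays with 1 mean per group, and within-sex contrasts from the 9 arrays of that sex. The self-test used simulated data. Precision is limited by the 3 arrays per group.

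The ribosomal protein genes and the lists were chosen with earlier results of these data known. Genes named are, per contrast over both sexes, those past the threshold and the 3 highest and 3 lowest, per within-sex contrast the 4 highest and 4 lowest, up to 4 called genes of each related list, genes whose probe sets disagree, and the 5 genes most like the mean. Others, including those named for groups that do not overlap and for their role, were chosen after their values were seen. The alternatives were other normalizations, variance models, array weights, probe set summaries, a filter on dim probe sets, and leaving out pools. Promoter motifs and sequences were not analysed here.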

Additional observations from a re-analysis of the deposited data

Results flagged for a closer look

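Probe sets that were not used for their gene passed the threshold in limma in 4 cases, outside the values that stand for the genes. The second probe set of RPS18 was higher on soy formula than on sow milk over both sexes by 0.49 (SE 0.11, adjusted p = 0.0196), with female ratios of 1.05, 1.15 and 1.1 on sow milk and 1.51, 1.67 and 1.49 on soy formula, while the probe set used gave 0.29. A second probe set of RPL23 was at -0.71 over both sexes (SE 0.17, adjusted p = 0.0248) and at -1.05 in females (SE 0.23, adjusted p = 0.0234), with 0.395, 0.43 and 0.85 in the female soy formula pools against 1 to 1.16 on sow milk, while the probe set used gave 0 and -0.19. A second probe set of RPL13A was at -1.8 in females (SE 0.35, adjusted p = 0.0144), with 0.143, 0.119 and 0.274 on soy formula against 0.416 to 0.801 on sow milk, while the probe set used gave -0.06. The RPL13A probe set was read at 1.2 to 2.76 in males, and one 18S rRNA control was also higher in males; its part in this was not tested. Single outlying pools were not tested for in groups of 3, and 0 of the 57 genes passed an interaction of sex and diet in limma, with 11, 1 and 3 at an unadjusted p under 0.05 for soy formula and for milk formula against sow milk and for soy against milk formula.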

How the results depend on the processing

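No median log2 difference of the 57 genes moved by more than the SD of the pool medians under any alternative run. That SD was 0.142 in males, 0.0937 in females and 0.12 over both sexes, as large as most of the medians. Most medians could fall to 0 without passing it, so it cannot show that they held. Over single pools left out, the milk formula median in females ran from -0.04 to 0.1. The soy formula median over both sexes ran from 0 to 0.09. Counts of genes past the threshold changed as follows. With trended and robust variances, and without the dimmest 40% of probe sets, 1 gene passed for soy against milk formula in females. With within-sex contrasts from all arrays, 1 passed for soy formula against sow milk in males and 0 in females. The spread shared in that setting understates that of males and overstates that of females. At an unadjusted p the counts were 5 in females and 5 over both sexes for milk formula, 4 in males, 9 in females and 7 over both sexes for soy formula, 8 for soy against milk formula in females, and 1, 11 and 3 for the interactions. Leaving out single pools gave 0 to 1 for soy formula over both sexes, 0 to 5 in females, and 0 to 2 for soy against milk formula in females. Without female soy formula pools 1 and 2, an alternative chosen after seeing the data that leaves 1 female soy array, the female soy count was 0.

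With quantile normalization, genes whose groups do not overlap numbered 2 (milk formula, males, higher), 5 (soy against milk formula, males, higher), 2 (milk formula, females, higher), 5 (soy formula, females, higher) and 3 (soy against milk formula, females, lower). The cause of these changes was not tested.

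Pool numbers did not pair the pools: 1 of 18 same-number pairs had a correlation of residuals above 0.1, and 4 of 18 arrays correlated best with their own number. With the number as a replicate block, 2 genes passed for soy formula in females and 0 elsewhere, and NPM1 no longer passed on milk formula.

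These values, none past the threshold as reported, changed sign. The quantile value of RPL22 (soy against milk formula, males) was 0. With the mean of all probe sets RPL23 was at -0.07 (milk formula, males) and 0.09 (soy against milk formula, males), RPL32 at 0.07 (milk formula, males) and 0.03 (both sexes), RPL24 at 0.02 (milk formula) and RPS27 at 0.01 (soy formula, males). Without female soy formula pools 1 and 2, soy formula gave 0.05 for RPL24 over both sexes, and -0.52 for RPL38 and 0.12 for RPL12 in females. Soy against milk formula then gave 0.02 for RPL32 and 0.21 for RPL12 over both sexes, and -0.32 for RPL38, -0.03 for RPL37, 0.23 for RPL12 and 0.12 for RPS28 in females. Over single pools left out, the range for milk formula was -0.32 to 0.05 for RPL37 and -0.36 to 0.1 for RPL32 in males, -0.62 to 0.19 for RPL38 in females, and -0.23 to 0.02 for RPL24. For soy formula it was -0.1 to 0.02 for RPS27, -0.12 to 0.08 for RPL30 and -0.25 to 0.13 for RPL7 in males, and -0.23 to 0.51 for RPL38 in females. For soy against milk formula it was -0.34 to 0.03 for RPL37 and -0.43 to 0.1 for RPS15A in males, and -0.03 to 0.79 for RPL38 and -0.02 to 0.21 for RPLP0 in females.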
